A study of Mus musculus with 24 samples.

Results

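The genes described here are 36 markers of nerve tissue: 6 of Schwann cells, 8 of axons and 22 of synapses. They were chosen by name from the 52178 genes of a count table. RNA was measured in cartilage explants of C57/BL6 mice, given as C57/BL6J in the methods of the study. Hip caps, the articular cartilage of the femoral head, came from 4-week-old males, and each library pooled 2 caps of 1 mouse. Metatarsals, embryonic rudiments with a growth plate, came from E15 embryos of unknown sex, and each library pooled 6. After 24 h of culture the explants spent 1 h in a pressure vessel at 0 MPa (controls), at 5 MPa, the physiological load, or at 50 MPa, the injurious one, followed by a further 24 h in the incubator. There were 4 libraries in each of the 6 groups. Age, skeletal site and culture medium differ between hip caps and metatarsals, sex may differ as well, and these cannot be told apart.

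Peripheral nerves reach bone through the periosteum and the marrow, while articular cartilage is described as free of nerves. Schwann cells wrap axons: Sox10 sets their identity, Erbb3 receives the neuregulin signal from the axon, and Mbp is a protein of the compact myelin sheath. At a synapse, vesicle proteins release transmitter, adhesion proteins such as neurexins and neuroligins join the 2 sides, and scaffold proteins anchor the receptors. Many of these genes are also transcribed in cells that form no synapse, so a transcript is not by itself a nerve. Explants are cut off from their neuron cell bodies, which lie in ganglia outside the dissected piece.

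The RE1 element, bound by the repressor REST that keeps neuronal genes silent outside neurons, gives a sequence context for the members. Its left part, TTCAGCACC, was searched on both strands of the 300 bases around gene starts (RefSeq, GRCm38.p6, 250 before to 50 after). It was present at 117 of 27025 genes (0.433%), and at 2 of the 19 members that had such a window, Syn1 and Nlgn1. The stretches before their starts are printed in the direction of the gene with the match in capitals, at chrX:20921092-20921168 (minus strand) and chr3:26154081-26154189 (minus strand), shown because they are the members that hold the letters. A match is not evidence of binding.
Syn1: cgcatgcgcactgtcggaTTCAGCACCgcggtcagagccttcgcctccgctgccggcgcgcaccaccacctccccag
Nlgn1: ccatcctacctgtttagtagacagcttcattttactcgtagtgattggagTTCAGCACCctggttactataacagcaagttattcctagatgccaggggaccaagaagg

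Libraries held between 4185557 and 25104484 estimated counts. According to the study, RNA integrity was below the ideal minimum in all samples, which it took as a sign of partial degradation. As clustering outliers, the methods of the study left out a control hip cap (replicate 4) and a 50 MPa hip cap (replicate 2), so 22 libraries were used here: 3, 4 and 3 hip caps and 4, 4 and 4 metatarsals at 0, 5 and 50 MPa. In the left-out 50 MPa hip cap, 28 of the 36 members (77.8%) lay above all 10 hip caps used, beside 35.5% of all tested genes, and in the left-out control 9 of 36 (25.0%), beside 20.0%. Of the 22, 5 were unstranded (control hip cap replicate 3, the 3 hip caps at 50 MPa and metatarsal replicate 4 at 50 MPa), and the rest were stranded. Controls and 5 MPa hip caps were in different sequencing runs, as far as the colours of the study's clustering plot tell, so run and pressure cannot be told apart there. All libraries at 5 MPa shared a run and a library type, which makes 5 MPa the cleanest comparison of tissues. Levels are CPM, counts per 1000000 counts of a library after TMM scaling of the totals. Differences are log2 fold changes from the edgeR quasi-likelihood fit with their standard errors (SE), and a gene was called at an adjusted p of at most 0.05. The fit held run and library type, so libraries of a group weighed unequally. In the control comparison, least squares on the design gave metatarsal replicate 1 a weight of -0.64 and the other control metatarsals -0.12 each. There 50 MPa metatarsal replicate 4 had -0.36, and at 50 MPa it had -0.76. At 5 MPa each library had 0.25 or -0.25. Log2 fold changes at 0 and 50 MPa are thus not plain differences of group means.

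Nerve genes were mostly lower in hip caps than in metatarsals. Without pressure, 19 members were lower, 2 were higher and 14 were not called, of 35 tested. Of all 21283 genes tested, 15.9% were lower and 14.1% higher. The vesicle gene Syt1 did not pass the filter on low counts. Members with few or no counts in hip caps, such as Foxd3 and Slitrk5, passed it through the metatarsals. Their calls are counted here but are not independent support for the direction. At 5 MPa, 23 members were lower and 5 higher, beside 19.1% and 18.8% of all genes, and at 50 MPa 20 were lower and 2 higher, beside 9.57% and 10.2%. The median log2 fold change over the tested members was -1.35, -1.40 and -1.82 at 0, 5 and 50 MPa, and over all tested genes -0.08, -0.08 and -0.01. At 0 MPa the count of lower members was 12 without control hip cap replicate 3, and also 12 without metatarsal replicate 4 at 50 MPa, the library that ties the library types together in metatarsals. The count of higher members was 1 without control metatarsal replicate 1. At 50 MPa, 4 were lower and 1 was higher without that metatarsal replicate 4. At 5 MPa the counts were 21 to 23 lower and 5 to 6 higher whichever library was left out. The study had itself named synapse organisation among the processes lower in hip caps of these samples, so the direction of the list is not independent evidence.

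A group of 18 members was lower in hip caps at all 3 pressures: Erbb3, Foxd3, Ngfr, Stmn2, Nefm, Ntrk2, Sema3a, Nrxn3, Nlgn1, Nlgn2, Nlgn3, Lrrtm1, Slitrk5, Slitrk6, Shank3, Dlg2, Dlg4 and Gria3. Cdh19 and Mbp were higher at all 3. The shares of all tested genes lower or higher at all 3 pressures were not computed. They can be at most the 9.57% lower and the 10.2% higher at 50 MPa. The call of Foxd3 at 50 MPa held in 23 of 30 alternative fits, and that of Nrxn3 at 5 MPa in 25 of 31. Without metatarsal replicate 4 at 50 MPa, the calls left at 50 MPa were those of Erbb3, Nlgn1, Nlgn2, Nlgn3 and Mbp, and Stmn2, Nefm and Lrrtm1 turned to 1.30, 3.62 and 0.38 on the log2 scale. Syp, Syt1, Snap25, Vamp2, Nrxn2, Shank2 and Gria1 were called at none. In these bulk samples, fewer cells of a type and less RNA per cell cannot be told apart.

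**Figure D1:**
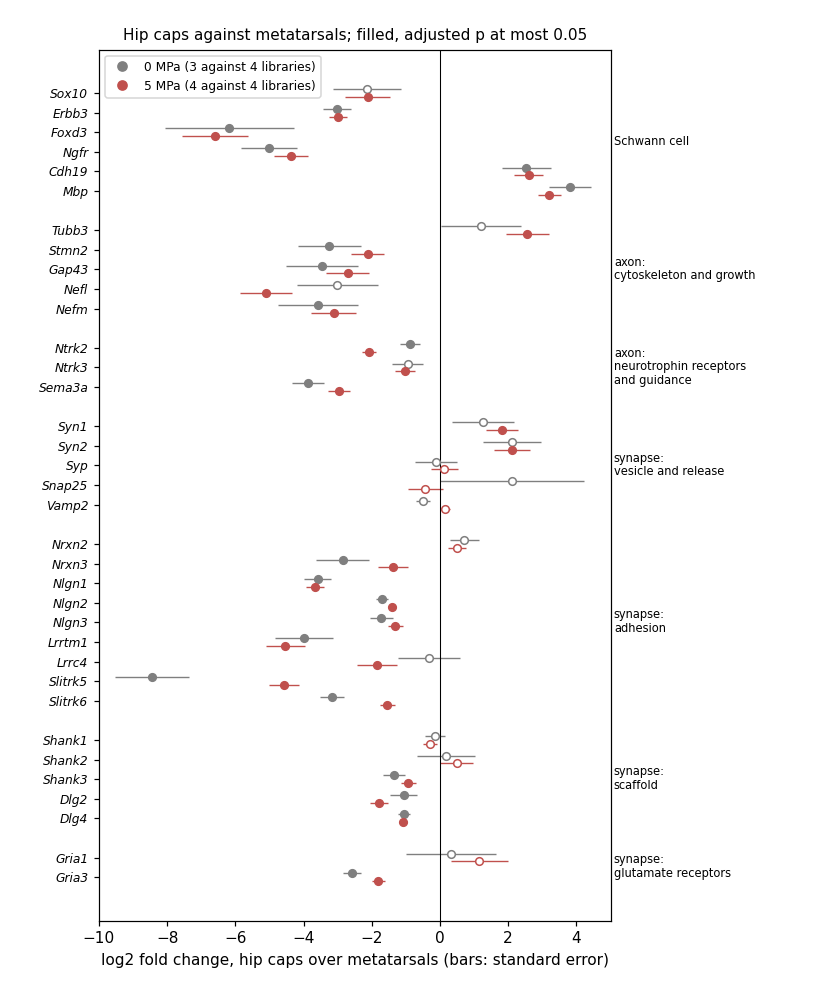
Log2 fold change (x axis) of hip caps over metatarsals for the 35 tested members (y axis, grouped by role) at 0 MPa (grey) and 5 MPa (red). Points are edgeR estimates, bars are standard errors and filled points have an adjusted p of at most 0.05. Most points lie left of 0, while Cdh19 and Mbp lie right of it at both pressures. The estimates of Foxd3 at 0 and 5 MPa and of Slitrk5 at 0 MPa rest on hip caps with 0 counts and depend on the prior count.

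The Schwann cell genes went in opposite directions. In control explants, Erbb3, Foxd3 and Ngfr were lower in hip caps, Mbp and Cdh19 were higher, and Sox10 was not called. The summed level of the 6 genes overlapped between the tissues, at 21.0 to 23.5 CPM in control hip caps and 15.7 to 31.5 CPM in control metatarsals. Mbp and Cdh19 together made up 89.1 to 96.0% of that sum in control hip caps and 5.13 to 15.0% in control metatarsals. At 5 MPa their share was 88.9 to 93.9% in hip caps and 8.22 to 18.2% in metatarsals, and at 50 MPa 79.5 to 95.7% and 7.14 to 9.45%.

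Erbb3, the neuregulin receptor of the Schwann cell lineage, was measured at 0.543, 0.794 and 1.62 CPM in the control hip caps and at 6.12, 12.5, 8.56 and 12.9 CPM in the control metatarsals. The groups did not overlap, and the log2 fold change was -3.01 (SE 0.409, adjusted p = 1.05e-05 by edgeR). It was -3.00 at 5 MPa and -2.94 at 50 MPa. Ngfr, the p75 neurotrophin receptor of immature and non-myelinating Schwann cells, stood at 0, 0.476 and 0.543 CPM in control hip caps. In control metatarsals it was 5.73, 8.71, 14.9 and 15.6 CPM, each above every hip cap. Its log2 fold change was -5.01 (SE 0.827, edgeR adjusted p = 0.000129), -4.36 at 5 MPa and -2.93 at 50 MPa. The smaller value at 50 MPa came with a hip cap library at 3.05 CPM (replicate 3), next to 0.105 and 0.618 CPM in the other two.

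Foxd3, a transcription factor of the neural crest and of early glia, had no count in any of the 3 control or 4 hip caps at 5 MPa. The control metatarsals held 0.191 to 0.694 CPM (1 to 9 counts a library), and those at 5 MPa 0.412 to 1.12 CPM. Against a floor of 3 counts over the hip cap group, Foxd3 was at least 3.51-fold lower in control hip caps and at least 19.8-fold lower at 5 MPa. The floor covers counting error only. Without counts in these hip caps, Foxd3 passed the filter on low counts only through the metatarsals. Its adjusted p by edgeR, 0.0217 at 0 MPa and 4.35e-05 at 5 MPa, is therefore not independent support for a lower level. At 0 MPa the call was lost when control hip cap replicate 3, control metatarsal replicate 1 or the 50 MPa metatarsal replicate 4 was left out. It was also lost with all 24 libraries, with stranded libraries alone and with replicate number in the fit, and held in 25 of 31 alternative fits.

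Sox10, the transcription factor that Schwann cells and melanocytes share, was low in both tissues. It was at 0.159, 0.190 and 0.814 CPM in control hip caps, which is 1 to 3 counts a library, and at 0.685 to 1.72 CPM in control metatarsals, so the groups overlapped. Its log2 fold change was -2.14 (SE 0.999, edgeR adjusted p = 0.112) at 0 MPa and -2.12 (SE 0.655, edgeR adjusted p = 0.0142) at 5 MPa. The call at 5 MPa was lost without metatarsal replicate 4 of that group and with all 24 libraries.

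Mbp had the opposite pattern. Control hip caps held 9.37, 15.6 and 15.7 CPM and control metatarsals 0.573, 1.16, 1.31 and 3.20 CPM, with no overlap. The log2 fold change was 3.80 (SE 0.619, edgeR adjusted p = 8.40e-05), 3.21 at 5 MPa and 4.85 at 50 MPa. Cdh19, a cadherin of Schwann cell precursors, was at 3.14, 5.70 and 13.2 CPM in control hip caps and 0.343 to 1.34 CPM in control metatarsals. Its log2 fold change was 2.53 (SE 0.717, edgeR adjusted p = 0.0112), 2.60 at 5 MPa and 2.85 at 50 MPa. The Cdh19 call at 0 MPa held in 27 of 32 alternative fits. It was lost without control metatarsal replicate 1 and when library totals alone were used for scaling (1.66). It was also lost with the control groups alone, with all 24 libraries and with stranded libraries alone. The lowest of these estimates was 1.20.

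**Figure D2:**
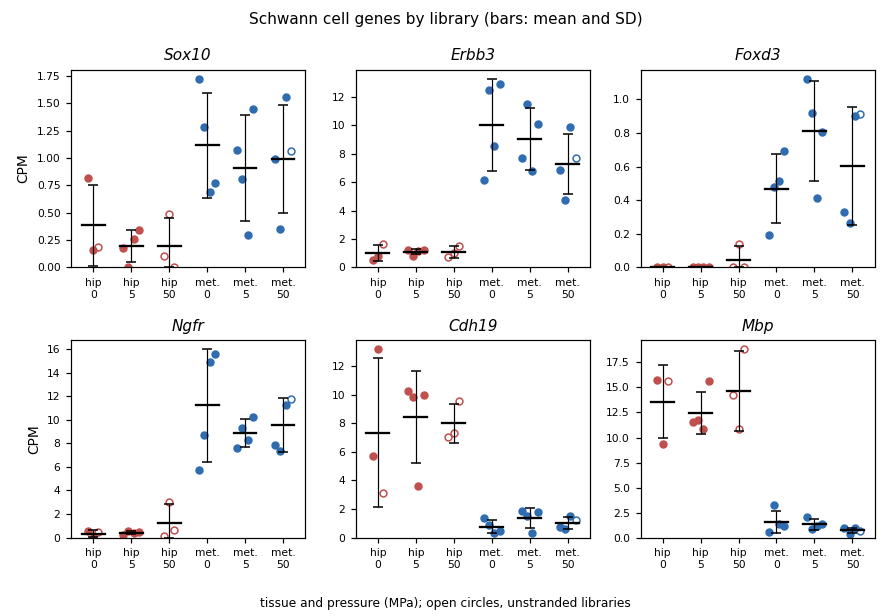
Level in CPM (y axis, linear from 0) of the 6 Schwann cell genes in each library, by tissue and pressure in MPa (x axis). Circles are libraries (open, unstranded), horizontal lines are means and bars are SDs, with the lower bar ending at 0. Erbb3, Foxd3 and Ngfr are higher in metatarsals, and Cdh19 and Mbp are higher in hip caps, without overlap between the tissues at any pressure. Of all tested genes, 22.8%, 21.5% and 21.4% are lower in hip caps without overlap at 0, 5 and 50 MPa, and 19.6%, 19.2% and 18.4% are higher.

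Among 20 further Schwann and glial genes, 16 were tested at 0 MPa, and 3 were higher and 2 lower in hip caps, near the background of 14.1% and 15.9% of all genes. S100b, a calcium-binding protein made by Schwann cells and by chondrocytes, was at 109 ± 31.3 CPM (SD, n = 3) against 12.1 ± 3.33 CPM (SD, n = 4), with a log2 fold change of 3.00. Cnp, an enzyme of myelinating glia, was at 22.5 and 4.60 CPM (log2 fold change 2.17). Zfp536, a transcription factor of neural tissue, was at 0.689 and 4.29 CPM (log2 fold change -2.75).

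Of the 8 axon genes, 5 were lower in hip caps at 0 MPa and 3 were not called, beside 15.9% lower of all genes. At 5 MPa, 7 were lower and Tubb3 was higher, beside 19.1% and 18.8% of all genes. At 50 MPa 5 were lower, beside 9.57%. Of the 5 cytoskeleton and growth genes, Stmn2, Gap43 and Nefm were lower at 0 MPa and Nefl and Tubb3 were not called. At 5 MPa, 4 were lower and Tubb3 was higher. Their counts in hip caps were near the limit of detection, at 0 to 10 in each control library, and the precision of each single value is low.

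Stmn2, a microtubule regulator of growing axons, was at 0, 0.271 and 0.318 CPM in control hip caps and 1.16 to 1.71 CPM in control metatarsals (log2 fold change -3.25, SE 0.921, edgeR adjusted p = 0.0109). Gap43, a protein of growth cones that immature Schwann cells make as well, had counts in only 1 of the 3 control hip caps, at 1.11 CPM. The control metatarsals were at 1.85, 2.17, 3.63 and 6.62 CPM, and the log2 fold change was -3.46 (SE 1.05, edgeR adjusted p = 0.0178). The calls of Stmn2 and Gap43 at 0 MPa were lost without control hip cap replicate 3 and without 50 MPa metatarsal replicate 4. Both were also lost with the control groups alone and with stranded libraries alone, and each held in 27 of 32 alternative fits. At 5 MPa both were called, at -2.11 and -2.71.

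Nefl and Nefm, the light and medium neurofilament subunits, were lower at 5 MPa by -5.11 (SE 0.762) and -3.11 (SE 0.656) on the log2 scale. Nefl had 0, 0, 1 and 2 counts in the 4 hip caps at 5 MPa and 20 to 49 in the metatarsals, a ratio of summed counts of 39.8 (exact 95% interval 13.4 to 196). At 0 MPa its 2 counts in control hip caps all came from replicate 3, and its edgeR adjusted p was 0.0625. The 2 genes lie on opposite strands and share 1108 exonic bases in the GENCODE annotation, so unstranded libraries cannot assign reads there by strand.

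Tubb3, the neuronal beta-tubulin, went the other way at 5 MPa. The hip caps were at 0.439, 0.913, 1.31 and 3.19 CPM and the metatarsals at 0.0897, 0.162, 0.235 and 0.467 CPM, and the lowest hip cap lay below the highest metatarsal. The log2 fold change was 2.56 (SE 0.639, edgeR adjusted p = 0.00311). At 0 MPa it was 1.21 (SE 1.18) and at 50 MPa 0.54 (SE 1.01), neither called. Tubb3 lies within a longer read-through gene on the same strand in GENCODE, Gm20388.

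**Figure D3:**
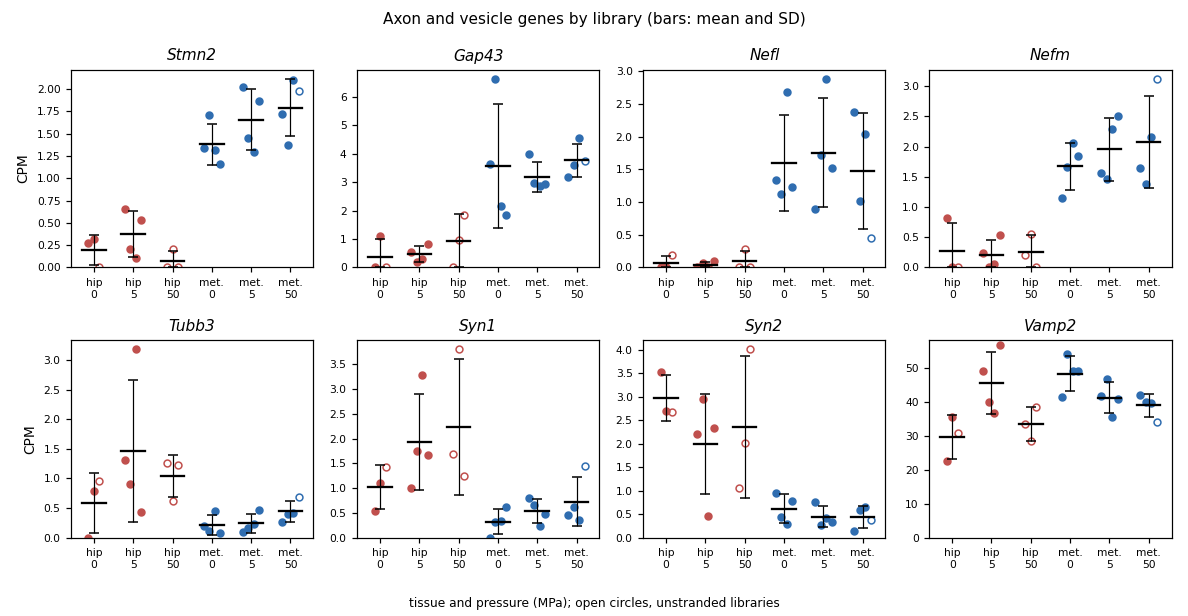
Level in CPM (y axis, linear from 0) of 5 axon genes and 3 vesicle genes in each library, by tissue and pressure in MPa (x axis). Circles are libraries (open, unstranded), lines are means and bars are SDs, with the lower bar ending at 0. Stmn2, Gap43, Nefl and Nefm are low in hip caps, while Tubb3, Syn1 and Syn2 have higher means there and Vamp2 is at similar levels in both tissues at 5 MPa.

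Sema3a, a secreted signal that repels growing axons and is also made by bone cells, had the largest gap in mean CPM among the 8 axon genes. Control hip caps held 2.98, 3.14 and 4.77 CPM and control metatarsals 49.6, 52.9, 58.2 and 61.5 CPM. The log2 fold change was -3.86 (SE 0.467, edgeR adjusted p = 6.89e-06), -2.97 at 5 MPa and -2.46 at 50 MPa. Sema3a was called under every alternative that tested it at 0 and 5 MPa.

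Ntrk2, the receptor of brain-derived neurotrophic factor, was at 13.2, 16.0 and 30.9 CPM in control hip caps and 32.4 to 37.5 CPM in control metatarsals (log2 fold change -0.88, SE 0.281, edgeR adjusted p = 0.0221). The gap was larger at 5 MPa (-2.07, SE 0.204), where hip caps held 5.92 to 13.1 CPM and metatarsals 40.2 to 44.8 CPM. The change of the gap with pressure did not pass the test (interaction at 5 MPa -1.19, SE 0.351, edgeR adjusted p = 0.301). The call at 0 MPa was lost on leaving out control hip cap replicate 2 or 3, control metatarsal replicate 1 or 50 MPa metatarsal replicate 4. It was also lost with the control groups alone, with stranded libraries alone and with replicate number in the fit, and held in 26 of 33 alternatives. Ntrk3, the receptor of neurotrophin-3, was at 4.09, 5.88 and 23.3 CPM in control hip caps and 17.2 to 29.3 CPM in control metatarsals, so replicate 1 of the hip caps lay among the metatarsals. It was not called at 0 MPa (-0.95, SE 0.455) and was lower at 5 MPa (-1.03, SE 0.297, edgeR adjusted p = 0.0103) and at 50 MPa (-2.44, SE 0.470). In hip caps Ntrk3 was at 5.88 to 23.3 CPM in the 6 stranded libraries and 0.927 to 4.09 CPM in the 4 unstranded ones. The unstranded metatarsal was at 17.2 CPM. All 50 MPa hip caps were unstranded, so the larger gap at 50 MPa and library type cannot be told apart.

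Related axon genes from wider lists were described in the same way. Of 22 guidance ligands and receptors, 3 were higher and 9 lower in control hip caps. Of all tested genes, 14.1% were higher and 15.9% lower there. The Slit receptors Robo1 and Robo2 were lower, at 28.5 ± 6.65 and 4.88 ± 0.808 CPM (SD, n = 3) against 225 ± 19.5 and 68.0 ± 4.51 CPM (SD, n = 4). Sema3f, a semaphorin that repels axons through neuropilin 2, was at 3.67 and 37.9 CPM. Of 11 tested neurotrophin and GDNF family genes, 4 were higher and 5 lower. Ret, the signalling receptor of the GDNF family, was at 8.41 CPM in control hip caps and 0.162 CPM in control metatarsals (log2 fold change 4.30). Its ligand Gdnf was at 0.201 and 1.59 CPM (-2.87), and the coreceptor Gfra2 at 0.318 and 8.01 CPM (-4.48). Of 15 further axon and neuron genes tested, 1 was higher and 6 were lower, among them Dcx, a microtubule protein of migrating neurons, at 0.461 and 12.1 CPM.

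The synapse genes are given by role. At 0 MPa, 7 of 9 adhesion genes, 3 of 5 scaffold genes, 1 of 2 glutamate receptor genes and 0 of 5 tested vesicle genes were lower, and none of these 21 was higher. Of all tested genes, 15.9% were lower and 14.1% higher. Syt1, a vesicle gene without a count in hip caps, was not tested. The 5 vesicle genes tested gave 2 at an unadjusted p under 0.05, beside 40.3% of all genes. At 5 MPa, 8 adhesion, 3 scaffold, 1 receptor and 0 vesicle genes were lower and 2 vesicle genes were higher. The shares of all genes were 19.1% lower and 18.8% higher. The difference between roles was not tested.

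Levels per kilobase divide CPM by the length of all annotated exons of a gene in GENCODE, joined over its transcripts. That length was 5785 bases for Nlgn2 and 13251 for Dlg4, so ranks per kilobase depend on the annotation. Nlgn2, the neuroligin of inhibitory synapses, had the highest level per kilobase of the members in control metatarsals, at 19.7 ± 3.45 CPM per kb (SD, n = 4). It had the second highest in control hip caps, at 5.44 ± 0.948 CPM per kb (SD, n = 3). Control hip caps held 25.3, 33.6 and 35.6 CPM and control metatarsals 90.6, 106, 125 and 136 CPM. The log2 fold change was -1.70 (SE 0.167, edgeR adjusted p = 1.69e-07), -1.40 at 5 MPa and -1.84 at 50 MPa. The call held under every alternative run at the 3 pressures.

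Nlgn1, the neuroligin of excitatory synapses, showed a wider gap. Its levels were 0.951, 1.36 and 1.43 CPM in control hip caps and 11.2, 13.0, 13.1 and 18.9 CPM in control metatarsals. The log2 fold change was -3.59 (SE 0.388, edgeR adjusted p = 6.06e-07), -3.67 at 5 MPa and -3.69 at 50 MPa, and the call held under every alternative that tested it at the 3 pressures. Nlgn3, found at both kinds of synapse and in glia, was at 2.71, 3.18 and 4.00 CPM against 8.22 to 13.1 CPM (log2 fold change -1.72, SE 0.336, edgeR adjusted p = 0.000546). An overlap of 1229 exonic bases with an antisense gene touches Nlgn1, and 3823 with a transcript on the same strand touch Nlgn3.

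The neurexins, partners of the neuroligins across the cleft, did not move together. Nrxn3 was at 0.159, 0.190 and 0.271 CPM in control hip caps, 1 to 2 counts a library, and 1.18 to 1.53 CPM in control metatarsals (log2 fold change -2.86, SE 0.781, edgeR adjusted p = 0.00851). Its call at 0 MPa was lost without control hip cap replicate 3, control metatarsal replicate 1 or 50 MPa metatarsal replicate 4. It was also lost with all 24 libraries, with the control groups alone and with stranded libraries alone, and held in 26 of 32 alternatives. Nrxn2 was at 3.81, 5.99 and 10.3 CPM against 2.87 to 4.54 CPM, with overlap, and was not called (0.72, SE 0.424).

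Slitrk5, an adhesion protein that binds presynaptic phosphatases, had no count in the 3 control hip caps and 2.34 to 3.63 CPM in control metatarsals, at least 19.7-fold lower with the floor of 3 counts over the group. At 5 MPa it had 8 counts in the 4 hip caps together and 230 in the metatarsals, a ratio of 25.1 (exact 95% interval 12.5 to 58.8). Slitrk6, its relative in the inner ear and sensory ganglia, was at 1.14, 2.71 and 5.40 CPM against 17.0, 18.3, 26.9 and 31.5 CPM (log2 fold change -3.16, SE 0.355, edgeR adjusted p = 1.04e-06). Lrrtm1, a neurexin-binding protein of excitatory synapses, was at 0, 0.159 and 0.543 CPM against 1.76 to 2.80 CPM (log2 fold change -3.98, SE 0.848). It was also lower at 5 MPa (-4.54) and 50 MPa (-4.89, but 0.38 and not called without metatarsal replicate 4 of that group).

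Lrrc4, an adhesion protein that binds netrin-G2, stood apart by library type in both tissues. In hip caps it was at 0 to 0.421 CPM in the 6 stranded libraries and 3.40 to 8.86 CPM in the 4 unstranded ones. In metatarsals it was at 0.571 to 1.38 CPM in the 11 stranded libraries and 7.45 CPM in the unstranded one. In GENCODE, Lrrc4 lies within Snd1 on the other strand, and Snd1 was at 93.0 CPM or more in each library used. A role of Snd1 reads was not tested. At 5 MPa, where all libraries were stranded, Lrrc4 was lower in hip caps (-1.86, SE 0.584, edgeR adjusted p = 0.0158). This call was lost without hip cap replicate 1 or 4 or without metatarsal replicate 1 at that pressure. It was also lost with all 24 libraries and without batch terms.

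**Figure D4:**
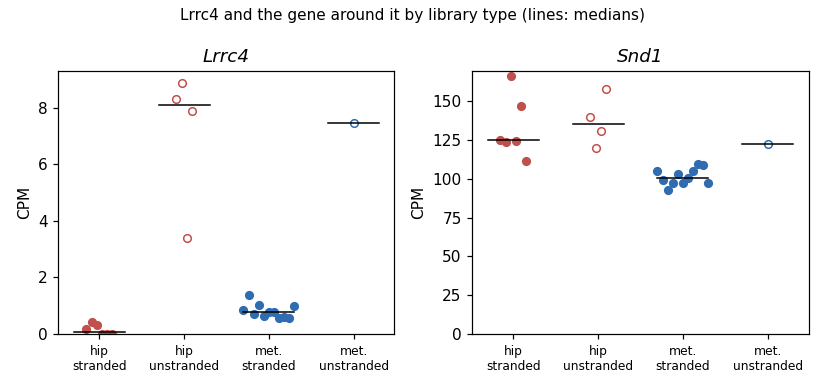
Level in CPM (y axis, linear from 0) of Lrrc4 (left) and of Snd1, the gene around it on the other strand (right), in the 22 libraries by tissue and library type (x axis). Circles are libraries (open, unstranded) and lines are medians. Lrrc4 is at 3.40 CPM or more in the 5 unstranded libraries and at 1.38 CPM or less in the 17 stranded ones, while Snd1 is high in both.

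Among the scaffolds, Dlg4, the protein known as PSD-95, was at 37.2, 38.9 and 51.8 CPM in control hip caps and 86.0, 90.5, 104 and 107 CPM in control metatarsals. The log2 fold change was -1.06 (SE 0.171, edgeR adjusted p = 7.34e-05), -1.08 at 5 MPa and -1.02 at 50 MPa. Shank3, which links receptors to the actin skeleton, was at 6.36, 7.87 and 10.9 CPM against 16.4 to 33.1 CPM (-1.35, SE 0.326), a call lost without control hip cap replicate 3, control metatarsal replicate 1 or 50 MPa metatarsal replicate 4. Dlg2, a relative of Dlg4, was at 4.47, 4.61 and 6.99 CPM against 10.5 to 14.2 CPM (-1.07, SE 0.394, edgeR adjusted p = 0.0460), and held in 12 of 32 alternatives at 0 MPa but in 32 of 32 at 5 MPa (-1.79, SE 0.277).

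Shank1, the third most abundant member per kilobase in control hip caps at 3.46 ± 1.17 CPM per kb (SD, n = 3), was at 27.8, 30.7 and 50.5 CPM there and 28.7 to 61.2 CPM in control metatarsals and was not called (-0.15, SE 0.299). Shank2, another scaffold of the family, averaged 1.00 and 0.905 CPM and was not called (0.17, SE 0.855). Gria3, an AMPA-type glutamate receptor subunit, was at 2.71, 3.71 and 6.20 CPM against 22.8 to 29.4 CPM (-2.59, SE 0.269, edgeR adjusted p = 3.79e-07) and kept its call under every alternative at 0 and 5 MPa. Gria1, another AMPA receptor subunit, was at 1.18 CPM or less in each library used (0.33, SE 1.31).

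**Figure D5:**
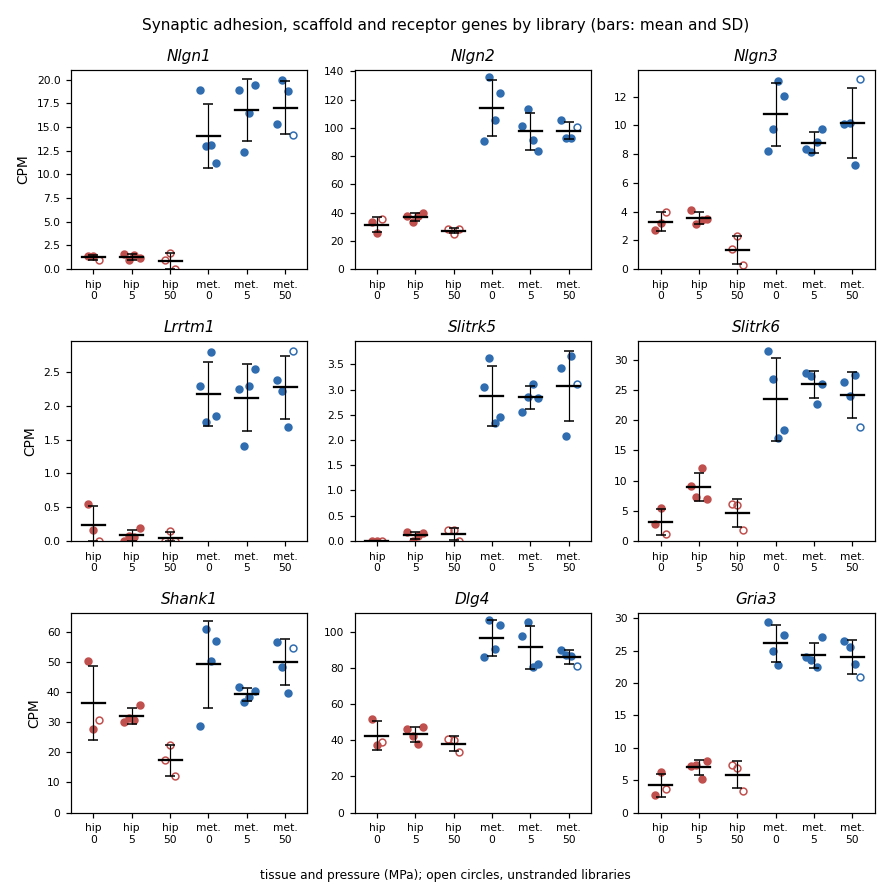
Level in CPM (y axis, linear from 0) of 9 synapse genes in each library, by tissue and pressure in MPa (x axis). Circles are libraries (open, unstranded), lines are means and bars are SDs, with the lower bar ending at 0. At every pressure the hip caps lie below the metatarsals without overlap, with the exception of Shank1 at 0 MPa, and at 50 MPa Nlgn3 and Shank1 lie below the control hip caps. Of all tested genes, 22.8%, 21.5% and 21.4% are lower in hip caps without overlap at 0, 5 and 50 MPa. Nrxn2, Nrxn3, Lrrc4, Shank2, Shank3, Dlg2 and Gria1 are not shown, of which Nrxn2, Shank2 and Gria1 were called at no pressure.

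None of the 5 tested vesicle genes was called at 0 MPa. Vamp2, the synaptobrevin of vesicle fusion in neurons and many other secretory cells, led the members per kilobase in control hip caps at 7.76 ± 1.72 CPM per kb (SD, n = 3) and came second in control metatarsals at 12.7 ± 1.37 CPM per kb (SD, n = 4). It was at 22.5, 30.7 and 35.4 CPM against 41.3 to 53.9 CPM at 0 MPa, without overlap, and was not called (-0.49, SE 0.206, edgeR adjusted p = 0.0807). At 5 MPa its log2 fold change was 0.14 (SE 0.145). Syp, a vesicle membrane protein, overlapped between tissues at each pressure, at -0.11 (SE 0.625), 0.13 (SE 0.387) and -0.42 (SE 0.658). With library totals alone, the values of Vamp2 and Syp at 5 MPa were -0.49 and -0.50, neither called.

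Syn1 and Syn2, the synapsins that tether vesicles, were higher in hip caps at 5 MPa. Syn1 was at 1.01, 1.66, 1.76 and 3.29 CPM against 0.235 to 0.807 CPM, without overlap (log2 fold change 1.81, SE 0.478, edgeR adjusted p = 0.00479), and this call was lost when library totals alone set the scale (1.20). Syn2 was at 0.463, 2.20, 2.34 and 2.95 CPM against 0.270 to 0.762 CPM, where only hip cap replicate 3 overlapped (2.11, SE 0.536, edgeR adjusted p = 0.00353). At 0 MPa the values were 1.26 (SE 0.913) for Syn1 and 2.10 (SE 0.850) for Syn2, neither called. Syn2 holds Timp4 on the other strand with 90 shared exonic bases.

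Syt1, the calcium sensor of release, had no count in any hip cap used and 1 to 12 counts in each metatarsal. With the floor of 3 counts over the hip cap group, its level there was at least 2.51-fold lower in controls, at least 11.6-fold lower at 5 MPa and at least 3.22-fold lower at 50 MPa. At 5 MPa the exact two-sided permutation test over 4 against 4 libraries gave an unadjusted p = 0.0286, the smallest that this design allows. Groups without overlap reach that value. At 5 MPa, 21.5% of all tested genes were lower in hip caps without overlap and 19.2% were higher. Snap25, a partner of Vamp2 in fusion, had 1 count in the 3 control hip caps together and 44 in the 4 control metatarsals, at 0 to 17 each. The ratio was 16.6 with metatarsals higher (exact 95% interval 2.82 to 669), and libraries of the groups overlapped. The fit with batch terms gave a log2 fold change of opposite sign, 2.11 (SE 2.11), which was not called. Without control metatarsal replicate 1, the library of largest weight in that comparison, it was -0.35. Without batch terms it was -3.67 and called. At 50 MPa Snap25 had 0 counts in hip caps and 37 in metatarsals, at least 4.97-fold lower with the same floor. All hip caps at 50 MPa were unstranded. Snap25 was at 0 CPM in the 4 unstranded hip caps and in the 1 unstranded metatarsal. Tissue and library type therefore cannot be told apart in that fold. With batch terms Snap25 was not called at any pressure (-0.43, SE 0.505 at 5 MPa).

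Wider lists held more synapse genes, to be set beside 15.9% lower and 14.1% higher of all genes in control hip caps. Of 30 other adhesion genes, 18 were lower and 2 higher in control hip caps, among them Lrrc4c, a relative of Lrrc4, at 0.0904 and 7.11 CPM, Slitrk1 at 0.0904 and 4.68 CPM and Clstn2, a calsyntenin, at 0.323 and 19.7 CPM. Of 19 other postsynaptic genes, 7 were lower and 0 higher. An unadjusted p under 0.05 by edgeR was found for 10 of them, beside 40.3% of all genes. The NMDA receptor subunits Grin2a and Grin2b were at 0.275 and 0.790 CPM against 9.44 and 4.97 CPM. Of 19 other presynaptic genes tested, 6 were lower and 2 higher, such as Rims1, a protein of the release site, at 0.414 and 3.51 CPM. Of 8 neuromuscular junction genes tested, 6 were lower and 1 higher. The acetylcholine receptor subunits Chrnd and Chrna1 were at 0.0317 and 0.270 CPM against 5.03 and 13.6 CPM, and Chrng had no count in control hip caps and averaged 6.87 CPM in control metatarsals.

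Markers of other cell types differed between the tissues beside these genes. Of all tested genes, 15.9% were lower and 14.1% higher in control hip caps. The 8 skeletal muscle markers summed to 7.87 to 11.8 CPM in control hip caps and 1007 to 2489 CPM in control metatarsals, and 8 of 8 were lower in hip caps. Myog, the muscle regulator, had no count in the control hip caps. The 6 fibroblast and perichondrium markers summed to 1406 to 1772 CPM against 2490 to 2805 CPM, with 5 lower and 1 higher. The higher one, Dcn, averaged 1280 and 108 CPM and so made up most of the hip cap sum. Of the 5 lower ones, Postn was at 24.1 and 513 CPM. The 6 chondrocyte markers summed to 40430 to 68010 CPM against 1383 to 3750 CPM, with 6 higher. The sums of the 5 endothelial markers overlapped (46.6 to 98.2 and 71.5 to 109 CPM), with 1 lower and 0 higher. The lower one was Kdr, at 4.42 and 23.15 CPM. The 6 melanocyte markers summed to 27.8 to 32.8 CPM against 15.0 to 18.5 CPM, with Mitf at 25.9 and 10.8 CPM and 2 of the 6 at 0 in every control hip cap. The 10 markers of neuron cell bodies summed to 56.6 to 84.7 CPM against 17.4 to 27.1 CPM, of which Tubb2b, a tubulin of many young cells, gave 59.7 and 14.8 CPM, and 3 of the 10 were at 0 in every control hip cap. The part of any of these cell types in the nerve gene results was not tested.

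Calls between pressures were few among the members. Among all genes they were few except in hip caps at 50 MPa, where 1101 of 21283 were called. In hip caps at 5 MPa, 0 members were called by edgeR, beside 0.0188% of all genes, with 4 at an unadjusted p under 0.05 (14.8% of all genes) and 1 called by DESeq2. At 50 MPa, 3 were called, beside 5.17% of all genes, with 11 at an unadjusted p under 0.05 (22.6% of all genes) and 5 called by DESeq2. In metatarsals, 0 members were called at 5 MPa and 0 at 50 MPa by edgeR, beside 0% of all genes, with 2 and 4 at an unadjusted p under 0.05 (3.24% and 3.89% of all genes), and DESeq2 called 0 of them too. The difference between the tissues in the response to pressure was called for 0 members at 5 MPa and 0 at 50 MPa (0.0188% and 0.132% of all genes), with 5 and 10 at an unadjusted p under 0.05 (11.2% and 18.3% of all genes), where DESeq2 called 1 and 2. The comparisons at 5 and 50 MPa share their controls.

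The 3 members called at 50 MPa in hip caps were Nlgn3, Shank1 and Slitrk6. Nlgn3 was at 2.71, 3.18 and 4.00 CPM in controls and 0.309, 1.37 and 2.28 CPM at 50 MPa, without overlap (log2 fold change -1.48, SE 0.378, edgeR adjusted p = 0.0309). Shank1 was at 27.8, 30.7 and 50.5 CPM in controls and 12.1, 17.5 and 22.4 CPM at 50 MPa, also without overlap (-1.17, SE 0.315, edgeR adjusted p = 0.0374). Slitrk6 was at 1.14, 2.71 and 5.40 CPM in controls and 1.85, 5.88 and 6.11 CPM at 50 MPa, and these overlapped (1.80, SE 0.438, edgeR adjusted p = 0.0259). The exact two-sided permutation p over 3 against 3 libraries was 0.100 for Nlgn3 and Shank1, the smallest possible, and 0.500 for Slitrk6. None of the 3 was called when control hip cap replicate 3, 50 MPa hip cap replicate 1, control metatarsal replicate 1 or 50 MPa metatarsal replicate 4 was left out, or when the 2 libraries that the study left out were added back. Ntrk2, Ntrk3 and Dlg2 also lay below the controls at 50 MPa without a call, so 5 tested members did, beside 7.56% of all genes. All 50 MPa hip caps were unstranded, while 2 of the 3 controls were stranded, and Shank1 shares 339 exonic bases with a gene on the other strand.

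In 5 MPa hip caps, Slitrk6 was at 6.97, 7.30, 9.15 and 12.1 CPM, above the 3 controls, with a log2 fold change of 1.98 (SE 0.406) and an edgeR adjusted p of 0.0896. Ntrk2 at 5.92 to 13.1 CPM lay below the controls (-0.85, SE 0.328, edgeR adjusted p = 0.243). Vamp2 and Snap25 also lay above the controls and Dlg2 below them. In total 3 of 35 tested members lay above and 2 below, beside 8.4% and 7.85% of all genes, and none was called. Among the Schwann cell genes at 5 MPa in hip caps, Cdh19 was at 3.60, 9.83, 9.95 and 10.3 CPM and Mbp at 10.9, 11.6, 11.7 and 15.6 CPM, each overlapping its controls. In metatarsals the 3 pressure groups overlapped for Erbb3, Ngfr, Nlgn1, Nlgn2, Dlg4 and Sema3a, with 4.76 to 12.9, 5.73 to 15.6, 11.2 to 20.0, 83.5 to 136, 80.8 to 107 and 48.7 to 70.5 CPM over the 12 libraries. At 5 MPa 1 tested member lay above its controls, Ntrk2 (40.2 to 44.8 against 32.4 to 37.5 CPM), beside 1.65% of all genes. At 50 MPa 1 lay below, Nrxn3 (0.990 to 1.16 against 1.18 to 1.53 CPM), beside 2.11%. Neither was called.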

How the data were processed

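The authors trimmed the reads (Trim Galore 0.6.5, quality 20), assigned them with kallisto to GRCm39 transcripts and summed them per gene. The deposited values are unnormalized estimated counts. Counts were rounded, and CPM used TMM-scaled totals. Of 52178 genes, 21283 passed filterByExpr. The main fit was the edgeR 4.0.16 quasi-likelihood test (R 4.3.3) over 22 libraries with group, sequencing run and library type, with Benjamini-Hochberg adjustment over all tested genes. Library type came from the labels. The run was read from the colours of the study's clustering plot (9 and 15 libraries), while its methods give another split by kit, so the run is uncertain, and a fit with library type alone is among the alternatives. DESeq2 1.42.0 was another alternative. The fit was tested on simulated data.

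Low-count ratios carry exact 95% intervals, and a group without counts was set to 3 counts over the group. Intervals and floors cover counting error only, and total depth sets their width. Gene models and overlaps came from GENCODE M21 (GRCm38), which is not the authors' annotation, and promoter windows from RefSeq. The table held 0 columns of other samples. Replicate numbers did not pair the samples: correlations of deviations from the group means were -0.29 to 0.17 for equal numbers (n = 50) and -0.34 to 0.47 for others. Each library is a separate pool, but whether pools came from separate culture days is not given in the sources used here, so p-values measure the spread between these libraries.

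All 36 members are named. From 14 further lists of 200 genes, at most 3 genes a list were named, those with the largest called difference between control tissues and a mean of at least 1 CPM, besides defining markers. Some items of these lists are not reported here. The members and lists were chosen with earlier results of these data known.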

Additional observations from a re-analysis of the deposited data

Results flagged for a closer look

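A 50 MPa hip cap that the study left out (replicate 2) held 28 of the 36 members above all 10 hip caps used (77.8%), beside 35.5% of all tested genes, at a total of 8953330 counts. Sox10 was at 5.15 CPM there, Foxd3 at 3.18 CPM, Ngfr at 9.84 CPM, Nrxn3 at 13.3 CPM and Shank2 at 21.6 CPM. The 8 members not above the other hip caps were Cdh19, Mbp, Syn1, Vamp2, Nlgn2, Lrrc4, Slitrk6 and Dlg4. The cause was not tested.

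Of 140 groups of 4 libraries, 8 held a library apart from the other three by Dixon's criterion, and chance gives about 5% of groups. Lrrc4 was at 7.45 CPM in the unstranded metatarsal (replicate 4) at 50 MPa and at 1.00 CPM in control metatarsal replicate 4. Cdh19 was at 3.60 CPM in hip cap replicate 3 at 5 MPa. Gap43 was at 3.99 CPM in metatarsal replicate 1, Sema3a at 49.2 CPM in replicate 2 and Nrxn2 at 5.17 CPM in replicate 3, all at 5 MPa. Nefl was at 2.68 CPM in control metatarsal replicate 3, and Nrxn3 at 0.990 CPM in metatarsal replicate 1 at 50 MPa.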

How the results depend on the processing

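In controls (19 lower, 2 higher, median -1.35), a minimum of 10 counts in every library left 7 members tested, with 6 lower, 0 higher and a median of -1.18. Library totals alone gave 1 higher and a median of -2.23, where the median of all genes moved from -0.08 to -0.97. These groups alone gave 11 lower, 1 higher and -1.64 (29 tested), and stranded libraries alone, chosen after seeing the data, 1 higher and -1.49. The median was -1.74 with all 24 libraries, -1.72 with library type alone, -1.68 without batch terms and -1.48 without a filter. At 5 MPa, the count minimum gave 5 lower, 0 higher and -1.15, and library totals a median of -2.04. At 50 MPa, all 24 libraries gave 6 lower, 1 higher and -0.57, the count minimum 6, 0 and -1.41, library totals 1 higher and -2.64, and no batch terms 4 higher. Fewer genes tested or fewer samples bear on the count minimum and on the groups alone, and otherwise the cause was not tested.

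In hip caps at 5 MPa against controls, 1 member was called by DESeq2, with library totals, without a filter and with the replicate block, 2 with library type alone and 4 without batch terms. At 50 MPa, 5 were called by DESeq2, 1 with the count minimum and with library type alone, and 0 with all 24 libraries, with hip caps alone (23 tested) and with library totals. DESeq2 called interactions for 1 member at 5 MPa and 2 at 50 MPa. Of values called in at least 1 of the fits compared, those that reversed were Snap25 without batch terms (-3.67 in controls, -6.02 at 50 MPa) and, at 50 MPa, Nefm (0.73) and Nrxn3 (2.16) with all 24 libraries and, without metatarsal replicate 4, Stmn2 (range over left-out libraries -7.60 to 1.30), Nefm (-3.99 to 3.62) and Lrrtm1 (-8.12 to 0.38). Of members not called, 7 of 14 in controls, 4 of 7 at 5 MPa and 10 of 13 at 50 MPa changed sign under at least 1 alternative without a call, among them Gap43 (-1.94 at 50 MPa, 3.98 without metatarsal replicate 4) and Lrrc4 (2.10 and 1.46 in controls and at 50 MPa without batch terms).

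Leaving out each library in turn gave 12 to 19 lower and 1 to 3 higher in controls (median -1.72 to -1.29), 21 to 23 and 5 to 6 at 5 MPa (-1.49 to -1.28), and 4 to 20 and 1 to 2 at 50 MPa (-1.96 to -1.09). It gave 0 to 1 and 0 to 4 called in hip caps under 5 and 50 MPa, 0 in metatarsals, and 0 to 2 and 0 to 4 interactions. The replicate block gave 16 lower and 2 higher in controls (median -1.45), and the numbers do not pair the samples. In hip caps, 0 counts in a group limit what depth can show. The part of RNA degradation in such low counts was not tested.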
